A study of Mus musculus with 8 samples.

Results

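The Prss genes encode serine proteases and protease-like proteins of the trypsin fold. Members were taken by symbol, as every gene named Prss followed by a number, and 33 of the 19276 entries in the gene tables met that rule. Of these, 22 had at least 100 reads summed over the 8 libraries and are described one by one, 10 had between 1 and 99 reads, and 1 had none. All members together took between 1067 and 11177 reads in a library.

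Proteases of this fold cut proteins after a peptide bond is attacked by a serine, which is held in place by a histidine and an aspartate. Many are made as inactive precursors and released, anchored to the outer membrane or packed into granules. In the mouse testis the family has spread into several small groups of neighbouring genes. Their products act in meiotic cells, in the acrosome (the enzyme-filled cap of the sperm head) and on the sperm surface, and several have lost the catalytic serine.

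RNA was sequenced from whole testis and from RNF17 immunoprecipitates (IPs) of C57BL/6 mice that were 6 weeks old. RNF17 belongs to the Tudor domain proteins of germ cells, a domain that recognises methylated arginine on partners such as the PIWI proteins. The 4 groups had 2 libraries each: testis of Rnf17 homozygotes, testis of Rnf17 heterozygotes, RNF17 IP from heterozygous testis lysate, and RNF17 IP from homozygous testis lysate. Both IP groups used the antibody RNF17 1774, the testis libraries used none, and all 4 groups carried at least 1 changed Rnf17 allele, whose nature the labels do not state. There was no wild-type group. Whether 2 libraries of 1 group represent 2 animals is not in the labels, and p-values therefore cover the spread among libraries alone, perhaps a technical one.

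The libraries held between 5661754 and 50575649 gene reads. The targeted gene Rnf17 stood at 50.3 and 97.6 CPM (reads scaled to a library of 1000000) in homozygous testis, against 507 and 551 CPM in heterozygous testis, a log2 fold change of -2.84 (SE 0.61) that the quasi-likelihood test of edgeR did not call (adjusted p = 0.139) and DESeq2 called (adjusted p = 4.93e-04). In the IPs it stood at 1263 and 1189 CPM from heterozygotes, against 214 and 393 CPM from homozygotes. Testis libraries of 1 genotype differed widely from each other: summed elongating spermatid markers (10 genes, led by protamines) were at 1111 and 2461 CPM in homozygous testis, against 5515 and 24237 CPM in heterozygous testis. In a bulk tissue, fewer cells of a type and less RNA per cell cannot be told apart. All p-values below are from edgeR with Benjamini-Hochberg adjustment over all genes tested unless DESeq2 is named, and a call is an adjusted p under 0.05.

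Where the members lie was read from the RefSeq gene order of GRCm38.p6, a later build than that of the tables. On chromosome 9, Prss42, Prss44, Prss43, Prss45, Prss46 and Prss50 follow each other with at most 1 other protein-coding gene between neighbours. Prss55, Prss51 and Prss52 form a run of 3 on chromosome 14, Prss39 and Prss40 a pair on chromosome 1, and Prss33, Prss41, Prss32 and Prss21 a run of 4 on chromosome 17. Prss22 with Prss27 on chromosome 17 and Prss8 with Prss36 on chromosome 7 are further pairs. The other members stand alone, and Prss37 and Prss58 are both on chromosome 6 with other genes between them.

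The residue at the catalytic centre differs among the members, and within a run only on chromosome 9. The coding stretch around it is shown for the members on which the comparisons turn. In each line below, 30 bases of coding sequence (GENCODE M21, sense strand, read 5′ to 3′) carry in capitals the codon at the position of the catalytic serine. The chromosome 14 run, with Prss58 for contrast, reads:
Prss51: tgccagggagacAGCggggcacccatggtc
Prss52: tgccagggcgacAGTggaggagctctcgtt
Prss55: tgccagggtgacAGTgggggaccgcttgtc
Prss58: tgcaaggaagtcACGgctgccccagcagtc

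The chromosome 9 run reads:
Prss42: tgccagggagatTCTggaggcccgatgtcc
Prss44: tgccagggagatTCTgggggccccctggtc
Prss43: tgttggggagatTCTgggaacccccttgtc
Prss45: tgctatggagacCCCggggggccattggct
Prss46: tgtcaggacaccTCCggaagctctctggtt
Prss50: tgctatgagataACTggcgagcccctggtc

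For the acrosomal pair, the inactive relative Prss54 and the membrane-anchored Prss21 the stretches are:
Prss39: tgccgaggagacTCTgggggccccctggtc
Prss40: tgcgcaggagatTCTgggggcccccttgtc
Prss54: tgcctgggggaaCCAggaagccctatgatg
Prss21: tgctttggtgacTCGggaggacccttggcc

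The letters GGNGANNNNGGNGGNCC, which spell the conserved glycine, acidic residue, any residue, glycine, glycine, proline in frame and on the coding strand, were found in 20 of 33 members, against 160 of 21591 coding genes (0.741%). In 19 of the 20 the codon in the open position is a serine codon, and Prss45 has CCC (proline) there. Pairwise alignment of the translations with those 20 placed the position in a further 9 members, with agreement of at least 16 of 20 alignments. Prss38, Prss43, Prss46, Prss51, Prss52 and Prss57 have a serine codon at the aligned position, whereas Prss50 has ACT and Prss58 ACG (threonine) and Prss54 has CCA (proline). Prss16, Prss23, Prss35 and Prss37 could not be placed. Serine is spelled AGC or AGT in Prss12, Prss51, Prss52 and Prss55, and TCN in the other 21 of the 25 members with a placed serine codon, so that the whole chromosome 14 run uses the one spelling and the serine members of the chromosome 9 run the other.

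The first comparison was homozygous against heterozygous testis. Prss37, Prss51, Prss52, Prss55 and Prss58 had far fewer reads in both homozygous libraries than in either heterozygous library, and the chromosome 9 run did not show such a gap. edgeR called 0 of the 21 members it tested, as it called none of 14332 genes (0.0% higher, 0.0% lower), and 7 members were lower and none higher at an unadjusted p under 0.05 (background 8.16% lower, 1.98% higher). DESeq2 called those 5 members lower and none higher of 22 (background 4.83% lower, 0.153% higher). In 9 members both homozygous libraries lay below both heterozygous ones (background 19.7%), and in 2 they lay above (background 20.3%). The median log2 fold change was -0.72 over the 21 members and 0.04 over all genes.

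**Figure D1:**
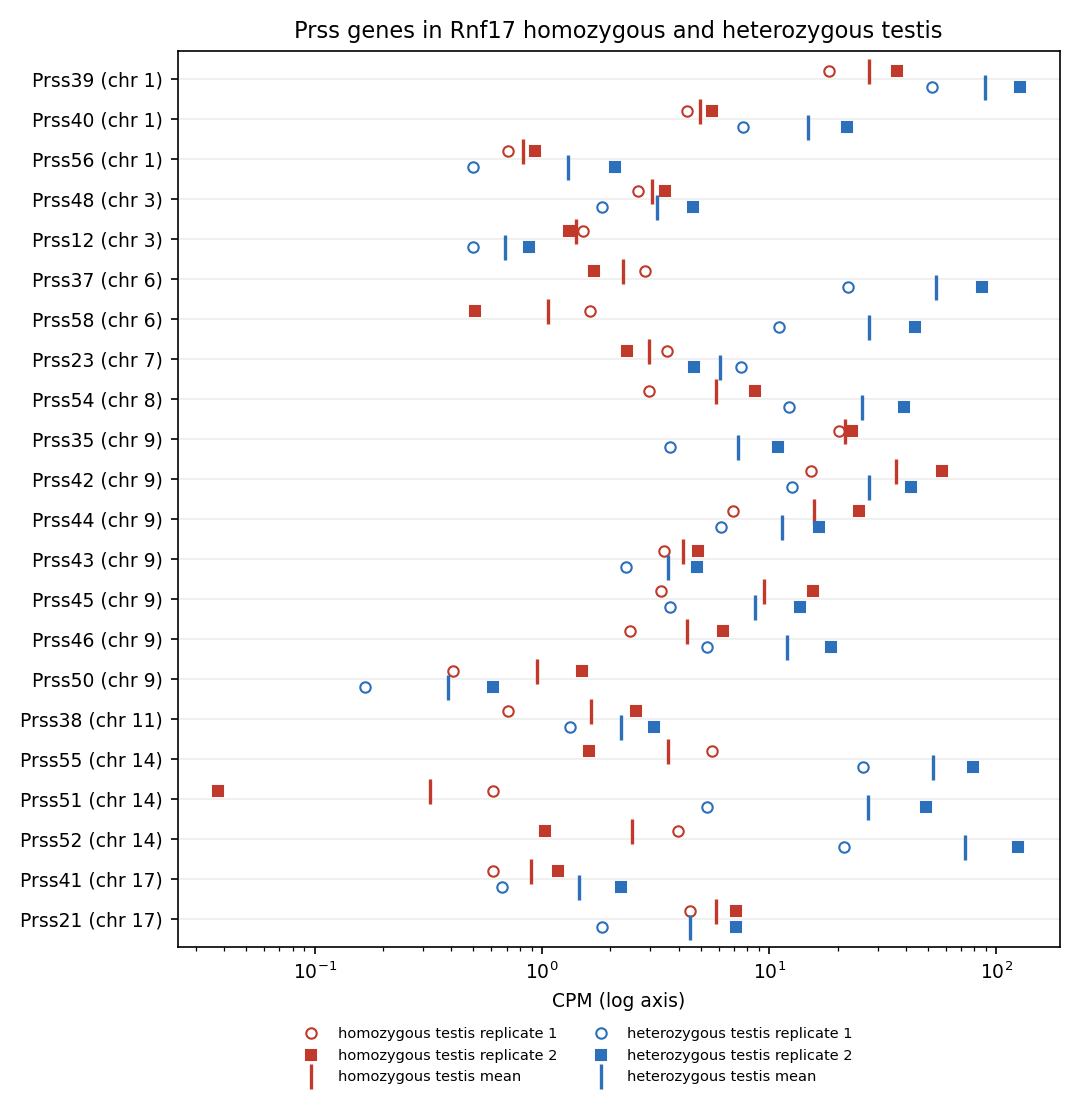
CPM on a log axis of the 22 members with at least 100 reads, in order of chromosome and gene order (circles, replicate 1; squares, replicate 2; bars, mean; red, homozygous testis; blue, heterozygous testis). Red and blue points are widely apart for Prss37, Prss51, Prss52, Prss55 and Prss58, while those of Prss42, Prss43, Prss44 and Prss45 interleave.

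Prss37 encodes a protease-like protein without the catalytic residues that male mice need for fertility, through the maturation of the sperm surface protein ADAM3. It had 2.84 and 1.70 CPM in homozygous testis, against 22.2 and 86.1 CPM in heterozygous testis, a log2 fold change of -4.60 (SE 0.87; adjusted p = 0.133 in edgeR and 5.33e-07 in DESeq2). The groups did not overlap, and the heterozygous libraries differed more from each other than the homozygous ones. Over 9 alternative fits the adjusted p ran between 1.18e-08 and 0.160, and the log2 fold change between -5.31 and -3.31.

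In the chromosome 14 run, Prss52, a testis protease, had 3.96 and 1.03 CPM in homozygous testis, against 21.3 and 124 CPM in heterozygous testis. Its log2 fold change was -4.93 (SE 1.14; adjusted p = 0.153 in edgeR and 3.46e-06 in DESeq2, and between 2.22e-09 and 0.164 over 9 alternatives). Prss51 had 0.61 and 0.037 CPM in homozygous testis, which stands for 6 and 2 reads, against 5.33 and 49.1 CPM in heterozygous testis. Its log2 fold change was -6.88, with the widest error of the members in this comparison (SE 1.66; adjusted p = 0.17 in edgeR and 4.32e-07 in DESeq2, and between 7.79e-11 and 0.148 over 9 alternatives). Prss55, a membrane-anchored sperm protease without which male mice are infertile, had 5.59 and 1.61 CPM in homozygous testis, against 26.0 and 79.2 CPM in heterozygous testis. Its log2 fold change was -3.91 (SE 0.91; adjusted p = 0.157 in edgeR and 7.95e-05 in DESeq2, and between 6.56e-07 and 0.408 over 9 alternatives). All 3 neighbours thus had both homozygous libraries below both heterozygous ones. Prss51 and Prss55 lie on opposite strands in overlapping spans that share 0 exon bases in GENCODE M21. Neither the counting rule nor its strand is given in the sources used here. With these exons, reads from the overlap could be mixed only if reads outside exons were counted.

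Prss58, a trypsin-like gene with a threonine codon at the active site, had 1.62 and 0.51 CPM in homozygous testis, against 11.0 and 43.8 CPM in heterozygous testis. The log2 fold change was -4.79 (SE 1.02; adjusted p = 0.139 in edgeR and 2.99e-06 in DESeq2, and between 4.75e-08 and 0.206 over 9 alternatives). The groups did not overlap. The 5 members differed in their active site: serine in Prss51, Prss52 and Prss55, threonine in Prss58, none placed in Prss37.

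These calls rest on few libraries. Without homozygous replicate 1 edgeR called 3 members lower and 179 genes in all, and without homozygous replicate 2 it called 0 members and 73 genes. Without heterozygous replicate 1 it called 8 members lower and 1273 genes in all, and without heterozygous replicate 2 it called 5 and 398. Such fits leave 1 library alone in its group, which is then assumed to vary like the others. The authors' deposited table for the testis comparison lists 734 genes, of which 4 are members. The authors' deposited table gives a log2 fold change of -3.12 (adjusted p = 4.22e-06) for Prss37 and -3.01 (adjusted p = 2.21e-05) for Prss58. In the same authors' deposited table Prss52 stands at -2.95 (adjusted p = 5.08e-05) and Prss55 at -2.61 (adjusted p = 3.21e-04). Prss51 is not among them.

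Prss39 and Prss40 encode acrosomal proteases (Tesp1 and Tesp2). Prss39 had 18.4 and 36.6 CPM in homozygous testis, against 51.8 and 127 CPM in heterozygous testis, and a log2 fold change of -1.70 (SE 0.68, adjusted p = 0.458). Over 9 alternatives that adjusted p ran between 0.0200 and 1.00, with a call in 2, and the log2 fold change between -2.24 and -0.91. Prss40 had 4.37 and 5.58 CPM in homozygous testis, against 7.67 and 22.0 CPM in heterozygous testis, and a log2 fold change of -1.59 (SE 0.71, adjusted p = 0.525, and between 0.0472 and 1.00 over 9 alternatives, with a call in 1). Both had lower values in each homozygous library than in any heterozygous one, with smaller gaps than the 5 members above. Prss40 also overlaps Cfc1 on the other strand. Prss54, a protease-like sperm protein with proline at the active site, showed a gap of the same kind, at 2.94 and 8.68 CPM in homozygous testis, against 12.2 and 39.1 CPM in heterozygous testis (log2 fold change -2.13, SE 0.84, adjusted p = 0.445). Over 9 alternatives its adjusted p ran between 0.00437 and 1.00 and its log2 fold change between -3.08 and -1.04. Prss39 and Prss54 were called with the replicate block (adjusted p = 0.0404 and 0.0194) and without heterozygous replicate 1 (0.0200 and 0.00437), and without heterozygous replicate 2 their log2 fold changes were -0.91 and -1.04.

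The chromosome 9 run holds Prss42, Prss43 and Prss44, known as testis-specific proteases of meiotic cells, with Prss45, Prss46 and Prss50. Prss42, which had the most reads of the family, was at 15.2 and 57.4 CPM in homozygous testis, against 12.7 and 42.1 CPM in heterozygous testis. Prss44 was at 6.91 and 24.7 CPM in homozygous testis, against 6.17 and 16.6 CPM in heterozygous testis. For both genes the spread within a genotype exceeded the distance between genotypes, with log2 fold changes of 0.40 (SE 0.84) for Prss42 and 0.47 (SE 0.82) for Prss44.

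Prss43 was at 3.45 and 4.86 CPM in homozygous testis, against 2.33 and 4.81 CPM in heterozygous testis. Prss45, with proline at the active site, was at 3.35 and 15.6 CPM in homozygous testis, against 3.67 and 13.7 CPM in heterozygous testis. These 2 genes also overlapped between genotypes, at 0.20 (SE 0.66) for Prss43 and 0.12 (SE 0.93) for Prss45 on the log2 scale. Prss46 was at 2.44 and 6.29 CPM in homozygous testis, against 5.33 and 18.7 CPM in heterozygous testis, with a log2 fold change of -1.46 (SE 0.83, adjusted p = 0.635). Prss50, known as TSP50, in which threonine takes the place of the catalytic serine, was at 0.41 and 1.5 CPM in homozygous testis, against 0.17 and 0.61 CPM in heterozygous testis, and its counts were too low for the edgeR test. For both, the homozygous and heterozygous libraries overlapped. Intervals this wide do not show that the run was equal in the genotypes.

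Prss21 encodes testisin, a membrane-anchored sperm protease, and Prss41 lies in the same run on chromosome 17, with Prss32 between them. Prss21 was at 4.47 and 7.17 CPM in homozygous testis, against 1.83 and 7.11 CPM in heterozygous testis (log2 fold change 0.35, SE 0.78). Prss41 was at 0.61 and 1.18 CPM in homozygous testis, against 0.67 and 2.23 CPM in heterozygous testis (log2 fold change -0.71, SE 0.80). Neither separated the genotypes. Prss41 shares 59 exon bases with Prss32 on the opposite strand. Prss38 was at 0.71 and 2.58 CPM in homozygous testis, against 1.33 and 3.12 CPM in heterozygous testis (log2 fold change -0.41, SE 0.83). Prss48 was at 2.64 and 3.48 CPM in homozygous testis, against 1.83 and 4.61 CPM in heterozygous testis (log2 fold change -0.10, SE 0.69). These 2 also overlapped, and Prss48 overlaps Sh3d19 on the opposite strand.

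Prss35 and Prss23 encode secreted protease-like proteins known from the ovary, where they are made by somatic cells. Prss35 was at 20.2 and 23.1 CPM in homozygous testis, against 3.67 and 11.0 CPM in heterozygous testis, with a log2 fold change of 1.54 (SE 0.70, adjusted p = 0.527). It was one of 2 members whose homozygous libraries both lay above the heterozygous ones. The other was Prss12, which encodes neurotrypsin of the nervous system, at 1.52 and 1.31 CPM in homozygous testis, against 0.50 and 0.88 CPM in heterozygous testis (log2 fold change 0.96, SE 0.69). Prss23 went the other way, at 3.55 and 2.36 CPM in homozygous testis, against 7.50 and 4.67 CPM in heterozygous testis (log2 fold change -1.05, SE 0.64, adjusted p = 0.661). Prss56, known from the eye, was at 0.71 and 0.94 CPM in homozygous testis, against 0.50 and 2.10 CPM in heterozygous testis (log2 fold change -0.72, SE 0.81). Its genotypes overlapped. None of these 4 was called.

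Marker sums also differed between the genotypes, and their part in the values of the members was not tested. Round spermatid markers (10 of 10 genes in the table) summed to 685 and 1184 CPM in homozygous testis, against 1782 and 5426 CPM in heterozygous testis, and DESeq2 called 5 of them lower, as it called 9 of 10 elongating spermatid markers. Pachytene spermatocyte markers summed to 1632 and 3118 CPM in homozygous testis, against 2321 and 5677 CPM in heterozygous testis, with 1 of 10 called lower. Sertoli cell markers (8 of 9 in the table) summed to 984 and 1377 CPM in homozygous testis, against 459 and 762 CPM in heterozygous testis. Leydig cell markers, of which Insl3 was at 0 in every library, summed to 612 and 775 CPM in homozygous testis, against 242 and 338 CPM in heterozygous testis. Epididymis markers summed to 2.13 and 52.3 CPM in homozygous testis, against 3.0 and 0.88 CPM in heterozygous testis. Prss35 was higher in both homozygous than in either heterozygous testis library. The same held for the sums of Sertoli, Leydig, peritubular myoid, mast cell and macrophage markers. It also held for Alas2, the only blood marker with reads, and only 1 mast cell marker passed the edgeR filter. The mast cell list shares Kit with the spermatogonia list, so that its sum is not of mast cells alone. Neither edgeR nor DESeq2 called a gene of these lists in testis. Summed spermatogonia markers overlapped, at 400 and 375 CPM in homozygous testis, against 486 and 260 CPM in heterozygous testis. By the median gene the 2 lists were alike: the log2 fold change was 0.81 over 7 tested spermatogonia markers and 0.78 over 7 tested Sertoli cell markers. The 5 members with the widest gaps were low in the genotype where both spermatid marker sums were low. Within heterozygous testis the 5 members and both sums were higher in replicate 2. Within homozygous testis the order was opposite: both sums were higher in replicate 2, and each of the 5 members was higher in replicate 1.

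Per kilobase of exon, levels can be set against each other between genes. In homozygous testis the highest levels were 22.9 CPM per kb for Prss42 and 20.6 for Prss39, followed by Prss45 at 7.69, Prss35 at 6.29 and Prss44 at 4.48. Heterozygous testis was led by Prss52 at 68.4 CPM per kb and Prss39 at 66.9, followed by Prss37 at 48.2, Prss55 at 37.5, Prss58 at 28.0, Prss51 at 21.9 and Prss42 at 17.3. Libraries of each neighbouring pair in the heterozygous order overlapped. Within each heterozygous library Prss39, Prss37, Prss55, Prss58 and Prss42 kept that order, while the places of Prss52 and Prss51 changed between replicates. The order within these 7 is therefore not fully resolved. Nor is the homozygous order: in homozygous replicate 1, Prss39 (13.8 CPM per kb) stood above Prss42 (9.62) and Prss35 (5.87) above Prss45 (2.71). Prss52, first by mean in heterozygous testis, was at 2.34 CPM per kb in homozygous testis. Prss51 had the lowest mean of the 22 there, 0.26, although in replicate 1 its 0.49 CPM per kb was above Prss41, Prss50 and Prss56.

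The second comparison set RNF17 IPs from heterozygous testis against those from homozygous testis, which carries the same antibody into lysate of the other genotype. For this comparison, rose and fell set the heterozygous IP against the homozygous IP, not an IP against testis. The 5 members with the widest gaps in testis were the 5 with the largest log2 fold changes here as well. The IP libraries are separate from the testis libraries but were made from testis lysate of the same genotypes. The match is therefore not an independent check of the testis result. Of 21 members tested, 11 were called higher and 2 lower in the heterozygous IP (background 17.7% higher, 12.4% lower of 13427 genes). DESeq2 called 10 higher and 1 lower of 22 (background 14.0% higher, 11.2% lower). With all 8 libraries in 1 fit, 4 members were called, Prss37, Prss52, Prss55 and Prss58, among 487 genes in all. Both heterozygous IP libraries lay above both homozygous ones in 12 members (background 32.2%) and below in 5 (background 36.1%). The median log2 fold change was 1.32 over the members and 0.03 over all genes.

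**Figure D2:**
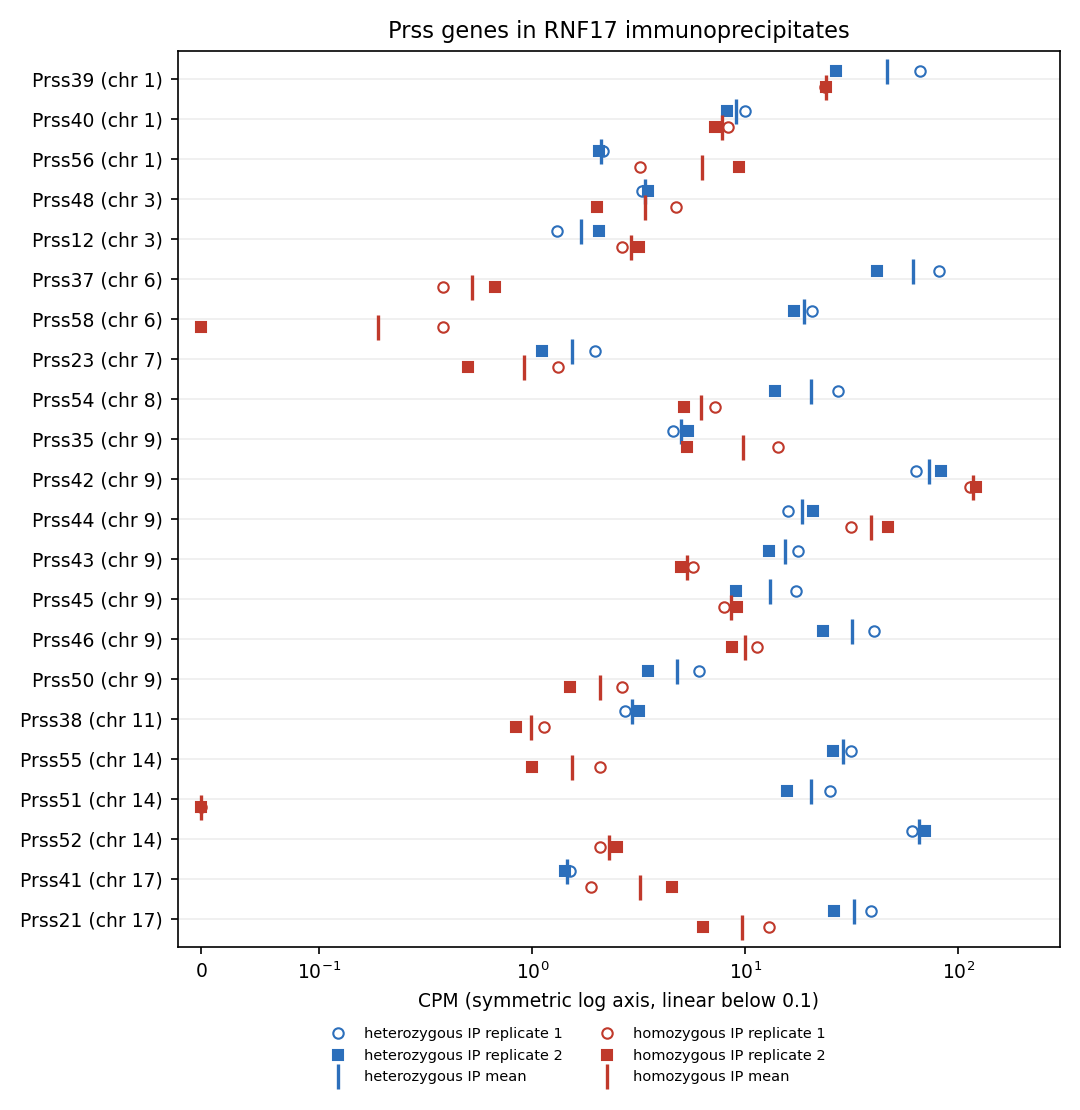
CPM of the same 22 members in RNF17 IPs on a log axis that is linear below 0.1 (circles, replicate 1; squares, replicate 2; bars, mean; blue, heterozygous IP; red, homozygous IP). Prss51 had 0 reads in both homozygous IPs, and Prss42 and Prss44 are the called members whose red points lie right of the blue ones.

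Prss37 rose to 81.1 and 41.4 CPM in the heterozygous IP, against 0.38 and 0.67 CPM in the homozygous IP (log2 fold change 6.89, SE 0.50, adjusted p = 2.52e-06). Prss52 rose to 60.9 and 69.6 CPM in the heterozygous IP, against 2.08 and 2.50 CPM in the homozygous IP (log2 fold change 4.90, SE 0.30, adjusted p = 1.20e-06). Prss55 rose to 31.5 and 25.8 CPM in the heterozygous IP, against 2.08 and 1.00 CPM in the homozygous IP (log2 fold change 4.31, SE 0.39, adjusted p = 1.09e-05). In these genes the lowest heterozygous IP library was far above the highest homozygous one, and each was called in all 9 alternatives.

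Prss58 had 20.6 and 17.0 CPM in the heterozygous IP, against 0.38 and 0 CPM in the homozygous IP, and was called higher (adjusted p = 1.37e-05), as in all 9 alternatives. That is 327 reads over the heterozygous group and 2 over the homozygous one, a ratio of 109 after scaling by library size, with an exact 95% interval of 29.8 to 900 that covers counting error only. Prss51 had 25.1 and 15.7 CPM in the heterozygous IP, against 0 and 0 CPM in the homozygous IP (adjusted p = 1.20e-05). With 367 reads against none it was at least 81.2-fold higher, taking a floor of 3 reads over the homozygous group. Its call was lost when all 8 libraries shared 1 fit (adjusted p = 0.0549).

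Elongating spermatid markers stood beside these 5 with summed levels of 8290 and 7864 CPM in the heterozygous IP, against 1764 and 1960 CPM in the homozygous IP. Those of round spermatids were at 2346 and 2488 CPM in the heterozygous IP, against 1554 and 1653 CPM in the homozygous IP. Pachytene markers were at 3380 and 3572 CPM in the heterozygous IP, against 4685 and 4340 CPM in the homozygous IP. The part of these in the results of the IPs was not tested.

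Among the acrosomal genes, Prss39 was called higher at 66.1 and 26.6 CPM in the heterozygous IP, against 23.7 and 24.0 CPM in the homozygous IP (log2 fold change 1.05, SE 0.35, adjusted p = 0.0424). That rests on heterozygous IP replicate 1: without it the log2 fold change was 0.25 (adjusted p = 0.736), and without homozygous IP replicate 2 the adjusted p was 0.0508. Prss40 was at 9.92 and 8.24 CPM in the heterozygous IP, against 8.33 and 7.17 CPM in the homozygous IP, which overlap (log2 fold change 0.32, SE 0.33, adjusted p = 0.493). Prss54 rose to 27.1 and 13.8 CPM in the heterozygous IP, against 7.19 and 5.17 CPM in the homozygous IP (log2 fold change 1.83, SE 0.38, adjusted p = 0.00381), a call that was lost without heterozygous IP replicate 1 (adjusted p = 0.0784).

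The chromosome 9 run divided. Prss42 fell to 63.3 and 83.2 CPM in the heterozygous IP, against 114 and 121 CPM in the homozygous IP (log2 fold change -0.60, SE 0.21, adjusted p = 0.0496). Prss44 fell to 15.9 and 20.9 CPM in the heterozygous IP, against 31.4 and 46.9 CPM in the homozygous IP (log2 fold change -1.01, SE 0.27, adjusted p = 0.0158). These were the only 2 members called lower, and neither call was stable. Prss42 missed the threshold in DESeq2 (adjusted p = 0.0526) and without heterozygous IP replicate 1 (0.443), heterozygous IP replicate 2 (0.0510) or homozygous IP replicate 2 (0.0875). Prss44 missed it without heterozygous IP replicate 1 (0.143) or homozygous IP replicate 2 (0.0705), and DESeq2 called it (0.0124).

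Prss43 and Prss46 of the same run went the other way. Prss43 rose to 17.8 and 13.0 CPM in the heterozygous IP, against 5.68 and 5.01 CPM in the homozygous IP (log2 fold change 1.62, SE 0.33, adjusted p = 0.00351), and without heterozygous IP replicate 1 its adjusted p was 0.0569. Prss46 rose to 40.2 and 23.3 CPM in the heterozygous IP, against 11.4 and 8.68 CPM in the homozygous IP (log2 fold change 1.76, SE 0.32, adjusted p = 0.00177). It kept its call with any 1 library left out and lost it with all 8 libraries in 1 fit (adjusted p = 0.227). Neither gene's groups overlapped. Prss50 was at 6.08 and 3.49 CPM in the heterozygous IP, against 2.65 and 1.5 CPM in the homozygous IP, and missed the threshold (log2 fold change 1.32, SE 0.51, adjusted p = 0.0696). Prss45 was at 17.2 and 9.03 CPM in the heterozygous IP, against 7.95 and 9.18 CPM in the homozygous IP, with overlapping groups (log2 fold change 0.72, SE 0.36, adjusted p = 0.151). All 6 genes of this run therefore had values in the IPs, but 2 were called in each direction and 2 in neither.

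Prss21 rose to 38.8 and 26.0 CPM in the heterozygous IP, against 12.9 and 6.34 CPM in the homozygous IP (log2 fold change 1.85, SE 0.35, adjusted p = 0.00227). It kept its call with any 1 library left out and lost it with all 8 libraries in 1 fit (adjusted p = 0.192). Prss41 of the same run was at 1.5 and 1.43 CPM in the heterozygous IP, against 1.89 and 4.50 CPM in the homozygous IP (log2 fold change -1.05, SE 0.56, adjusted p = 0.182). Prss38 was called higher at 2.71 and 3.17 CPM in the heterozygous IP, against 1.14 and 0.83 CPM in the homozygous IP (log2 fold change 1.64, SE 0.56, adjusted p = 0.0452). That call was the least stable of the family: it was lost in DESeq2 (adjusted p = 0.209) and without any 1 of the 4 libraries (between 0.0533 and 0.311). Prss48 was at 3.28 and 3.49 CPM in the heterozygous IP, against 4.73 and 2.00 CPM in the homozygous IP, with overlapping groups (log2 fold change 0.10, SE 0.50).

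Prss56 was at 2.15 and 2.06 CPM in the heterozygous IP, against 3.22 and 9.34 CPM in the homozygous IP (log2 fold change -1.49, SE 0.53, adjusted p = 0.0537). Prss12 was at 1.31 and 2.06 CPM in the heterozygous IP, against 2.65 and 3.17 CPM in the homozygous IP (log2 fold change -0.74, SE 0.52). Both homozygous IPs lay above both heterozygous ones for each gene, without a call. Prss35 was at 4.59 and 5.39 CPM in the heterozygous IP, against 14.2 and 5.34 CPM in the homozygous IP (log2 fold change -0.89, SE 0.45). Prss23 was at 1.97 and 1.11 CPM in the heterozygous IP, against 1.32 and 0.50 CPM in the homozygous IP, and was too low for the edgeR test. Both of these overlapped between genotypes.

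**Figure D3:**
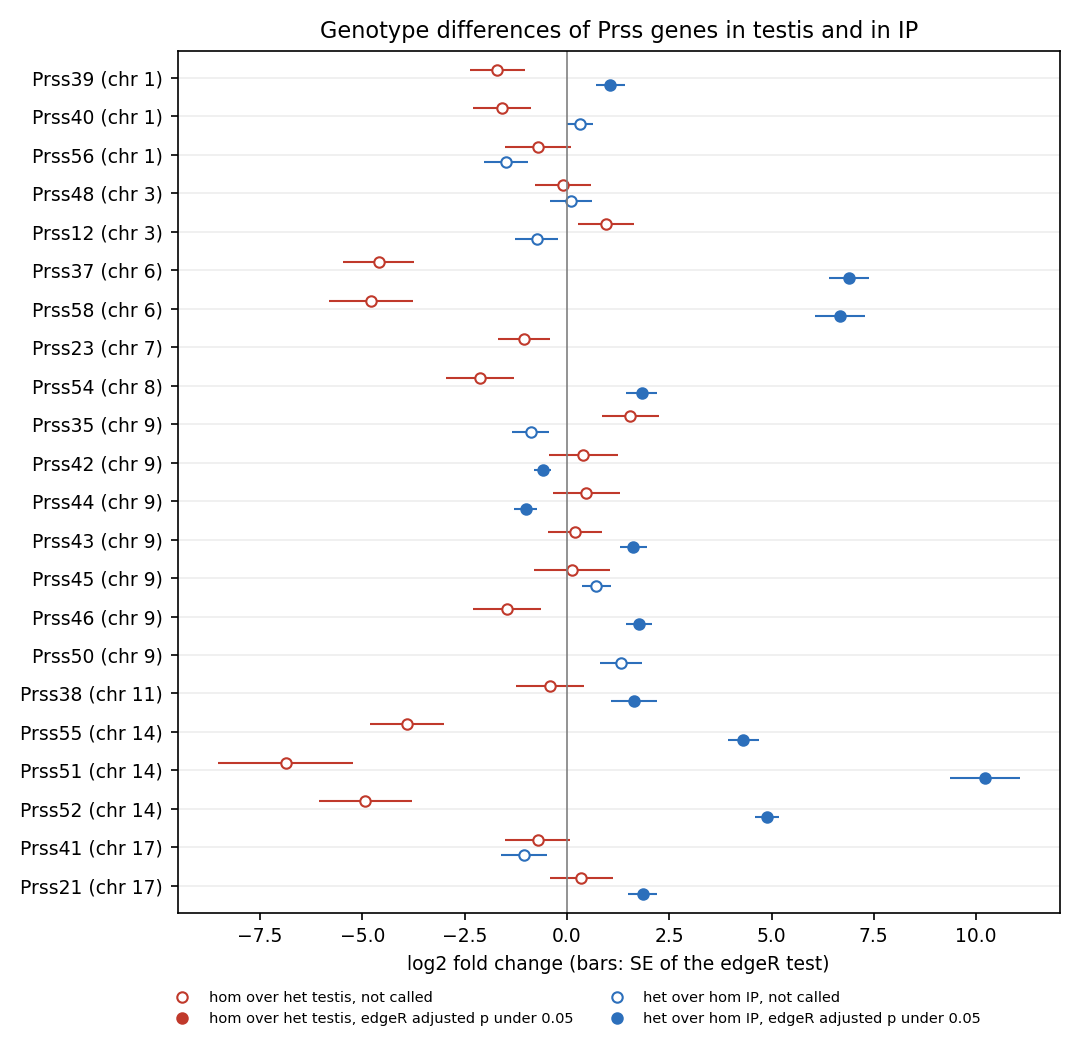
Log2 fold changes with the SE of the edgeR test for homozygous over heterozygous testis (red) and heterozygous over homozygous IP (blue), filled where the adjusted p was under 0.05. Prss37, Prss51, Prss52, Prss55 and Prss58 lie farthest from 0 in both, and the fitted value of Prss51 in the IP depends on the prior count because 1 group had 0 reads.

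The third comparison was of IP with testis within a genotype, the testis libraries being the lysate columns of the IP tables, and it shares its libraries with the first and second comparisons. In heterozygotes, 0 of 22 members were called, as were 0 of 13562 genes (0.0% higher, 0.0% lower), with 3 members higher and 1 lower at an unadjusted p under 0.05 (background 10.2% higher, 7.98% lower). DESeq2 called 2 members higher of 19, Prss21 and Prss50 (background 2.02%), and none lower (background 2.92%). Prss21 had a log2 fold change of 2.89 (SE 0.71; adjusted p = 0.214 in edgeR and 0.00607 in DESeq2, and between 5.69e-09 and 1.00 over 9 alternatives). Prss50 had the largest value, 3.48 (SE 0.71; adjusted p = 0.206 in edgeR and 0.0240 in DESeq2, and between 1.64e-04 and 1.00 over 9 alternatives). Both genes were among the 6 members with both heterozygous IP libraries above both testis libraries (background 28.1%). Prss43 came next at 2.13 (SE 0.52, adjusted p = 0.214), and the lowest was Prss23 at -1.92 (SE 0.59, adjusted p = 0.234).

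The 5 members with the widest genotype gaps were close to their testis level in the heterozygous IP. Log2 fold changes of heterozygous IP over heterozygous testis were 0.25 (SE 0.71) for Prss37, -0.08 (SE 0.77) for Prss52, -0.33 (SE 0.96) for Prss51, -0.48 (SE 0.67) for Prss58 and -0.81 (SE 0.58) for Prss55. For Prss37, Prss51, Prss52 and Prss58 both IP values lay between the heterozygous testis values. None of the 5 differed beyond the spread of the libraries, which, with SEs this wide, does not show that IP and testis were equal. Nor does it separate their high level in the heterozygous IP from their level in the lysate it came from.

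In homozygotes, 1 of 19 members was called, Prss56 as higher in the IP (background 1.84% higher, 1.45% lower of 13334 genes). Its log2 fold change of homozygous IP over homozygous testis was 2.89 (SE 0.71, adjusted p = 0.0498), from 17 and 56 reads in the IP against 7 and 50 in testis. The call was lost without homozygous IP replicate 2 (log2 fold change 1.93, adjusted p = 0.667) and with all 8 libraries in 1 fit (adjusted p = 0.171). At an unadjusted p under 0.05, edgeR had 4 members higher and 3 lower (background 11.5% higher, 11.1% lower). In 3 members both IP libraries lay below both testis libraries (background 28.0%). Among the 5 members with the widest genotype gaps, Prss37 stood at -2.07 (SE 0.80, adjusted p = 0.156). Prss55 stood at -1.19 (SE 0.79) and Prss52 at -0.06 (SE 0.76), while Prss51 and Prss58 were too low for the edgeR test. DESeq2 called 2 of 16 members higher (background 5.45%), Prss56 (adjusted p = 0.00474) and Prss42 (0.0294), and 0 lower (background 5.15%). Prss42 stood at 1.68 (SE 0.53, adjusted p = 0.0959 in edgeR), as one of 9 members with both homozygous IP libraries above both testis libraries (background 28.7%), and its adjusted p ran between 1.55e-11 and 0.369 over 10 alternatives.

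**Figure D4:**
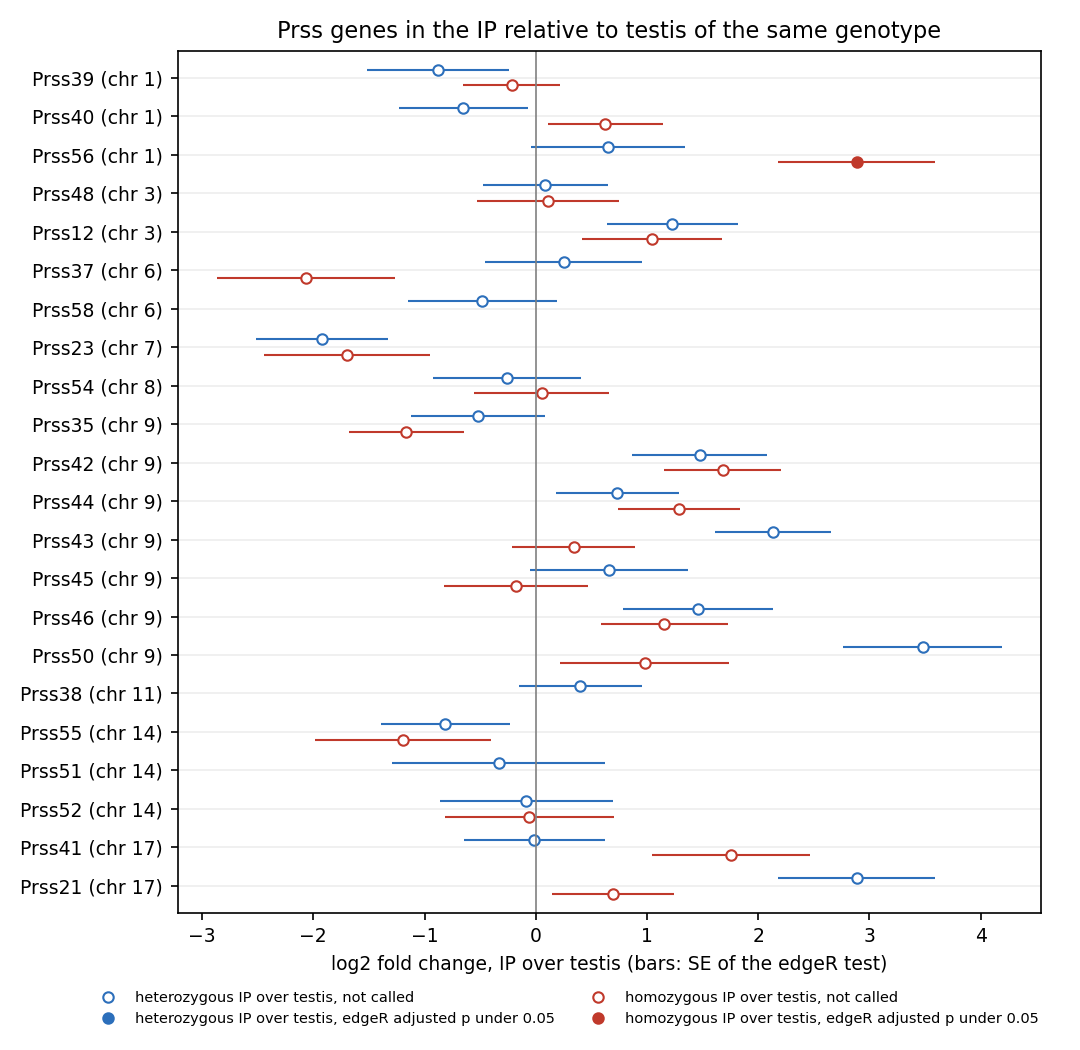
Log2 fold changes of IP over testis within heterozygotes (blue) and within homozygotes (red), with the SE of the edgeR test, for members that passed the filter on low counts in that genotype. Prss50 and Prss21 lie highest in heterozygotes, and Prss56 is the single filled point, in homozygotes.

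The interaction, the log2 ratio of IP to testis in heterozygotes minus that in homozygotes, was fitted on all 8 libraries. It called 0 of 22 members and 0 of 14180 genes (0.0% higher, 0.0% lower). At an unadjusted p under 0.05, 2 members were higher and 0 lower (background 3.6% higher, 6.08% lower): Prss43 at 1.73 (SE 0.69, unadjusted p = 0.0349, adjusted p = 0.474) and Prss21 at 2.10 (SE 0.91, unadjusted p = 0.0477, adjusted p = 0.510). DESeq2 gave an adjusted p to 4 members and called none. Prss21 and Prss43 are thus the members for which the IP ratios of the genotypes lay farthest apart relative to their error, without passing the adjustment. Over the 22 members, values ran between -2.30 for Prss56 and 4.12 (SE 4.58) for Prss51.

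The 11 members under 100 reads add little. Prss36, known as polyserase, had 81 reads and between 0.38 and 1.67 CPM in a library. It was the one member of these 11 with a test in homozygous against heterozygous testis, by DESeq2 (log2 fold change 0.22, adjusted p = 0.987). Prss53 had 17 reads, Prss22 had 13 and Prss32 had 11. Prss8 (prostasin, of epithelia) had 5, Prss16 (of the thymus) and Prss27 had 4 each, Prss33 and the pancreatic trypsin Prss1 had 2 each, Prss57 of neutrophils had 1 and Prss3 had 0. Of these, Prss22 had reads in both homozygous IPs, 5 and 4, and in neither heterozygous IP, and was not tested by edgeR. Prss1 and Prss3 share 54.9% and 66.1% of their 50-base stretches with other trypsin genes, and Prss53 shares 74.4% with Gm21974, so that their counts are uncertain. Exocrine pancreas markers (4 of 5 in the table) summed to at most 1.08 CPM in a library.

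Genes that work beside these proteases were set against them, beside DESeq2 calls over all genes in testis of 4.83% lower and 0.153% higher. Of 9 tested proteases outside the Prss symbols, DESeq2 called 1 higher and 0 lower in homozygous testis, Klk1b21, a kallikrein, at 9.75 and 21.6 CPM in homozygous testis, against 1.5 and 3.25 CPM in heterozygous testis (log2 fold change 2.69, SE 0.75, DESeq2 adjusted p = 0.0140). Of 12 acrosome partners, 2 were called lower and 0 higher by DESeq2, the sperm hyaluronidases Hyal5 (log2 fold change -3.14, SE 0.92, DESeq2 adjusted p = 0.00433) and Spam1 (-2.64, SE 0.84, 0.0206). Of 11 protease inhibitors, 2 were called lower, the cystatins Cst13 (-4.74, SE 0.92, 3.10e-07) and Cst8 (-3.00, SE 0.79, 0.00302), and 1 higher, Serpina5 (1.98, SE 0.53, 0.0359). Of 15 genes of ADAM3 maturation and egg-coat binding, the pathway in which Prss37 acts, 3 were called lower and 0 higher: Calr3 (-3.81, SE 0.74, 7.94e-06), a chaperone needed for ADAM3; Adam6b (-3.31, SE 0.66, 6.92e-05); and Ace (-3.28, SE 0.79, 5.54e-04). edgeR called 0 of these genes in testis. In the heterozygous against the homozygous IP, edgeR called 3 of 9 proteases, 6 of 12 acrosome partners, 2 of 11 inhibitors and 8 of 15 ADAM3 genes higher, and 0, 1, 0 and 3 lower. Over all genes these shares were 17.7% higher and 12.4% lower, so that the share of inhibitors called higher was close to the background.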

How the data were processed

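The deposited gene tables hold whole-number counts of reads per gene, made by the authors; STAR, DESeq and build mm9 are named in the submitters' processing notes, with no counting rule or strand given in the sources used here. Per the file headers, the authors' deposited table of changed genes holds for each genotype a normalised mean signal, the log2 fold change with a standard error (listed as a score) and raw and adjusted p-values; the log2 fold changes are smaller in size than the ratios of the means. The 4 testis columns repeated in the IP tables were identical, and 0 columns were unmapped. Transposon tables were not used.

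Counts were tested with edgeR 4.0.16 in R 4.3.3 (TMM, filterByExpr, quasi-likelihood, Benjamini-Hochberg over all genes), each comparison on its own 4 libraries and the interaction on 8. DESeq2 1.42.0, RLE factors, no filter, a replicate block, a fit of all 8 libraries and each library left out were alternatives. An adjusted p that DESeq2 left undefined was kept so. CPM use TMM library sizes over all 8 libraries, so folds from a comparison's own fit differ slightly from their ratio. Gene depth was 5661754 to 50575649 reads, and 1 read in 1 library was worth between 0.019 and 0.19 CPM. Levels per kb use the exon union of GENCODE M21. Alignments used Biopython 1.88 with BLOSUM62. Coordinates are not printed, because the reference build differs from mm9.

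The members, gene lists and marker lists were chosen with earlier results of these data known. Members with at least 100 reads are described one by one; from each gene list, up to 3 genes with the smallest p in testis were eligible to be named.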

Additional observations from a re-analysis of the deposited data

How the results depend on the processing

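In homozygous against heterozygous testis the count of 0 called members became 5 in DESeq2, 5 without the filter on low counts, 7 with the replicate block and 5 with all 8 libraries in 1 fit, all lower, and between 0 and 8 with 1 library left out. In heterozygous against homozygous IP the count of 13 became 4 with all 8 libraries in 1 fit and between 7 (without heterozygous IP replicate 1) and 15 with 1 left out. In heterozygous IP against testis the count of 0 became 2 in DESeq2, 2 with the replicate block and between 0 and 14 with 1 left out (14 without heterozygous testis replicate 1, in a fit that called 5887 genes, and 11 without replicate 2, in one that called 7278). In homozygous IP against testis the count of 1 became 2 in DESeq2, 2 without the filter, 2 with the replicate block, 0 with all 8 libraries and between 0 and 6 with 1 left out (6 without homozygous testis replicate 2, in a fit that called 4556 genes). The cause of these shifts was not tested. RLE factors changed none of these counts beyond 1.5 times, and the interaction stayed at 0 members in every alternative (over all genes 0, and 248 in DESeq2). Over all genes, testis calls numbered 0 in edgeR, 715 in DESeq2, 361 without the filter, 943 with the block and 655 with all 8 libraries; IP calls by genotype numbered 4042, and 487 with all 8 libraries. Heterozygous IP against testis had 0 calls, and 600 in DESeq2 and 194 with the block; homozygous IP against testis had 438, and 1319 in DESeq2, 1469 without the filter and 51 with all 8 libraries. No member called by edgeR or DESeq2 changed direction in any alternative of that comparison.

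Replicate numbers do not pair the samples by the labels. Deviations of same-numbered libraries from their group means correlated at 0.606 between homozygous and heterozygous testis, 0.053 between the IPs, 0.022 between heterozygous IP and testis and -0.134 between homozygous IP and testis (14180 genes, which are not independent replicates). For that last pair a crossed pairing, chosen after seeing the data, called 3 members and 1787 genes, against 1 and 438 without a block and 2 and 1010 with the block.

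With 2 libraries a group, testis fold changes of the members carried SEs of up to 1.66 (log2, for Prss51), and the edgeR filter kept no member under 100 reads.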
